A study of Mus musculus with 8 samples.

Results

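The endoplasmic reticulum (ER) genes described here are 39 genes chosen by name from the 54141 gene IDs of the deposited table, and all 39 are among the 16132 genes that passed the filter on low counts. By role they are 16 chaperones and folding enzymes, 9 genes of ER-associated degradation, 3 genes of the translocation channel, 5 stress sensors or sensor-dependent factors and 6 genes of the Atf4 and Ddit3 arm. RNA-seq was done on distal colon epithelium of c57bl6/j mice, with 4 libraries from Degs2 homozygous mutants (Degs2_KO) and 4 from wild-type mice (WT). The epithelium had been lifted off with EDTA and strained, and no drug, diet or disease model is named for either genotype. The labels give neither the mutant allele, nor age or sex, nor whether each library is 1 mouse, so a p-value here measures the spread between libraries, part of which may be technical. Degs2 encodes a desaturase and hydroxylase that makes phytoceramide, and the series title places it in the control of intestinal inflammation.

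Proteins bound for secretion, the cell surface or the endomembranes enter the ER through the Sec61 channel, are folded there with the help of Hsp70-type, Hsp90-type and lectin chaperones and disulfide isomerases, and are sent to the proteasome by ER-associated degradation when folding fails. Unfolded protein is sensed by Ern1 (IRE1 alpha), Eif2ak3 (PERK) and Atf6: IRE1 splices Xbp1 mRNA, cleaved Atf6 enters the nucleus, and PERK phosphorylates eIF2 alpha, which favours translation of Atf4. Xbp1 and Atf6 act on chaperone and degradation genes, whereas Atf4 acts on amino acid, redox and cell death genes such as Asns, Chac1 and Ddit3. In the colon this machinery is heavily used by goblet cells, which make mucin and carry an IRE1 of their own, Ern2.

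Degs2 itself had 53.3, 47.7, 65.6 and 65.9 CPM (counts scaled to a common library size by TMM) in Degs2_KO replicates 1 to 4, against 151, 110, 106 and 120 CPM in WT replicates 1 to 4. The genotypes did not overlap, yet about 0.478 of the WT level was still counted in the mutants (log2 fold change -1.07 ± 0.15, SE). The edgeR quasi-likelihood test gave an unadjusted p of 4.94e-05 and a Benjamini-Hochberg adjusted p of 0.796 over 16132 tested genes, while DESeq2 called the gene. Libraries held 43.2 to 46.2 M fragments in Degs2_KO and 32.8 to 49.8 M fragments in WT. Epcam, a defining marker of epithelium, had 1704 to 1932 CPM in Degs2_KO and 1719 to 2006 CPM in WT. Degs2_KO replicate 3 and WT replicate 1 stood apart from the other 6 libraries: they scored 59.1 and 53.9 on the first principal component (50.3% of the variance), where the others lay between -43 and 1.1. Hoxd13, a gene of the most distal gut, had 0.312 CPM in Degs2_KO replicate 3 and 0.699 CPM in WT replicate 1, against 42.5 to 60.7 CPM in the other Degs2_KO libraries and 38.8 to 85.3 CPM in the other WT libraries.

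No ER gene passed the test between the genotypes. edgeR called 0 of the 39 at an adjusted p under 0.05, as it called 0 (0.0%) of all 16132 tested genes. At an unadjusted p under 0.05 the count was again 0 of 39, beside 183 of 16132 tested genes (1.13%), and by DESeq2 it was 1 of 39, beside 274 of 28275 genes (0.969%). DESeq2 called 0 of the 39 at an adjusted p under 0.05, beside 2 of 28275 genes (0.00707%). Most differences nevertheless had the same sign: 35 of the 39 genes had a log2 fold change above 0, against 47.4% of all tested genes. Their median was 0.17 (0.11 without Degs2_KO replicate 4), against -0.01 for all tested genes. The one member whose genotypes did not overlap was Canx, where 168 of all tested genes (1.04%) had groups that did not overlap and 0.484% had them with Degs2_KO higher. No test is attached to these shares, because the members were chosen with earlier results of these data known. They also varied together between libraries, so they are not 39 separate observations. The precision was moderate: 27 of the 39 fold changes had a 95% interval that stayed inside 1.5-fold in either direction, against 60.4% of all tested genes. In bulk libraries, more RNA per cell and more cells of a type that uses the ER heavily cannot be told apart.

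**Figure D1:**
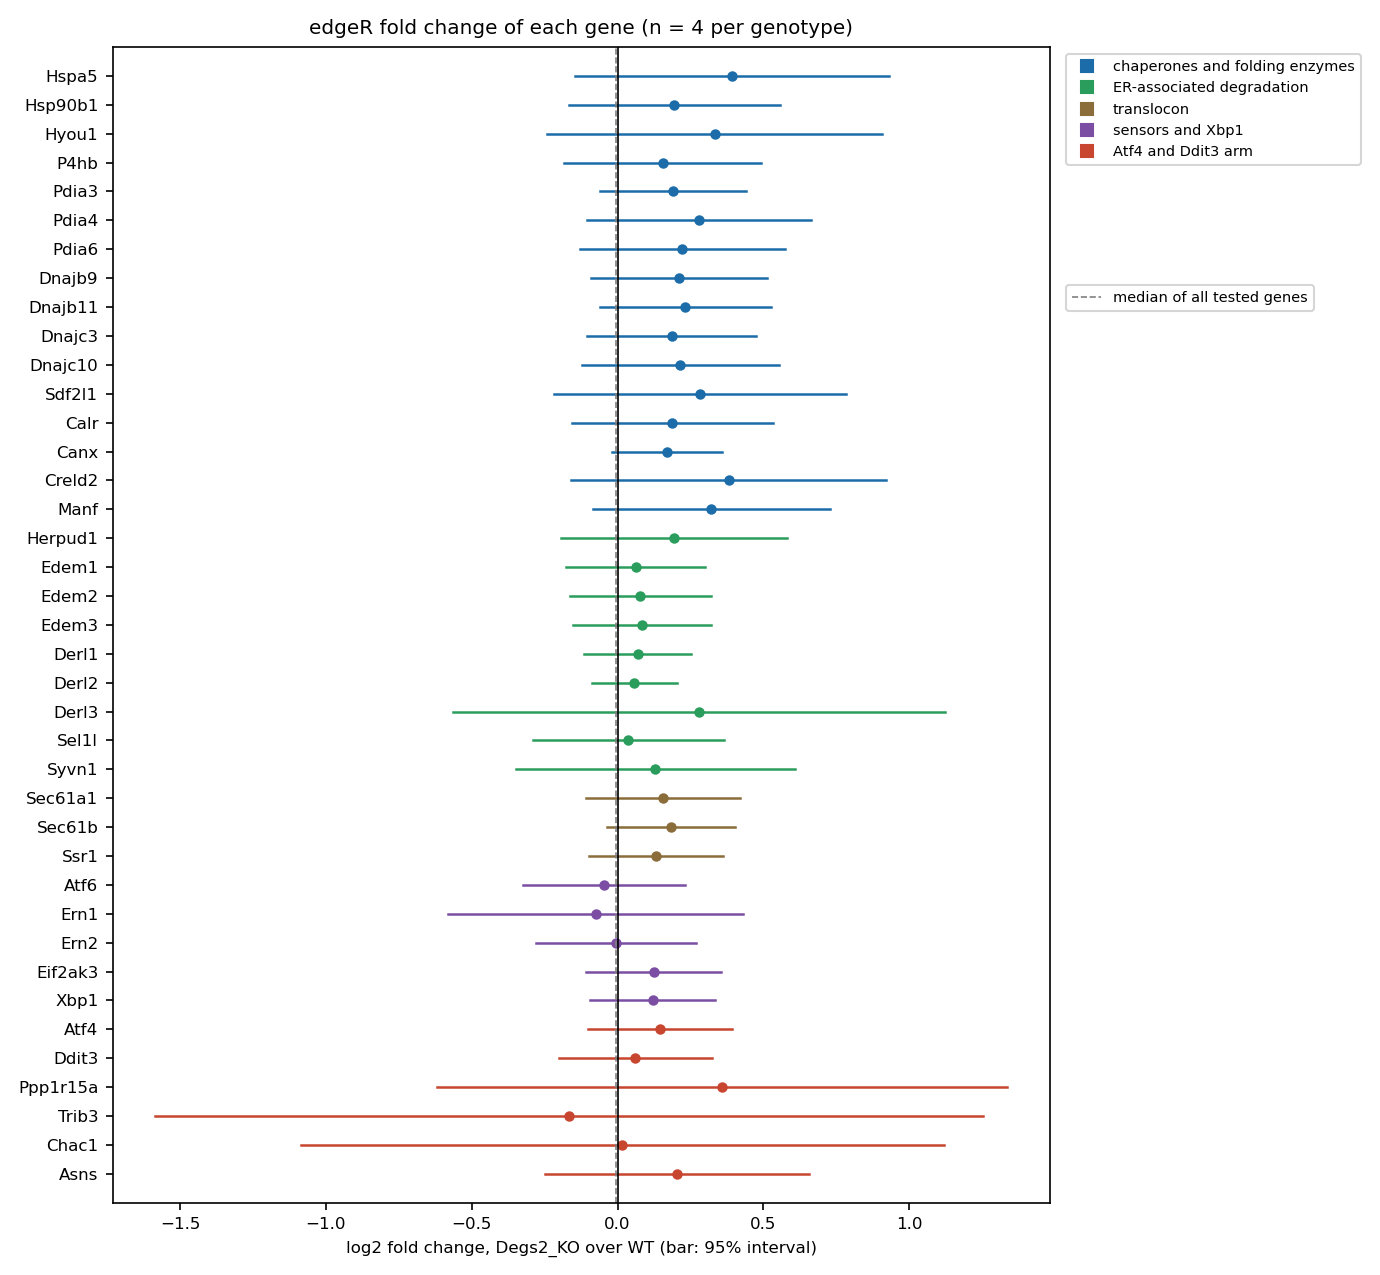
Log2 fold change (Degs2_KO over WT, x axis) of each of the 39 genes with its 95% interval from edgeR, coloured by role, n = 4 libraries per genotype. Every interval crosses 0, while 35 of the 39 points lie to the right of it and all 16 chaperone points do.

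The genes were chosen by name for their ER roles, and the sequence before the transcription start was read for known ER stress motifs. Genes named for the ER stress response may hold such motifs by that choice, so the shares below are described without a test. The ER stress element, read on either strand as CCAAT, then any 9 bases, then CCACG, is the site described for Atf6 with the CCAAT factor NF-Y. Of the 39 genes 33 had a window in RefSeq's promoter table (build GRCm38.p6), of which the 250 bases before the start were searched. The element was present in 7 of the 14 chaperone genes with a window, in 2 of the 8 degradation genes with a window and in none of the translocon, sensor or Atf4 arm genes with a window. It was in 35 of all 27025 genes with a window (0.13%). The end motifs are common by themselves, CCAAT in 37.5% and CCACG in 31.0% of all genes, and each whole element is counted in both of these shares as well. The windows below show the whole element of the 9 members, 5′ to 3′ on the gene's own strand, with its fixed bases in capitals. In genes where it runs the other way the capitals read CGTGG and ATTGG.
Hspa5: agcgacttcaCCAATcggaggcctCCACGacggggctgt
Pdia6: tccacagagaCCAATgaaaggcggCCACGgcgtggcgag
Dnajc3: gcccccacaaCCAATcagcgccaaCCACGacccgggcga
Canx: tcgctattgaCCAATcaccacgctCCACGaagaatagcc
Syvn1: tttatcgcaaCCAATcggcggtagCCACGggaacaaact
Calr: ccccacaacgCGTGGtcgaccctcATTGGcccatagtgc
Creld2: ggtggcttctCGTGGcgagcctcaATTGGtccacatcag
Derl3: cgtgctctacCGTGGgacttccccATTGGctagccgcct
Hsp90b1: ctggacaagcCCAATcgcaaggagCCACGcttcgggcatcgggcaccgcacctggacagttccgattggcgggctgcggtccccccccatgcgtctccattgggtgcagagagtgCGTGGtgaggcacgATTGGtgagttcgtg

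The Hspa5 stretch lies at chr2:34772015-34772053 on the plus strand, 75 to 37 bases before the RefSeq start, and the GENCODE model of the gene begins upstream of it. That of Canx lies at chr11:50325790-50325828 and that of Calr at chr8:84847065-84847103, both on the minus strand. Hsp90b1, at chr10:86705523-86705666 on the minus strand, carries the element 2 times, once in each direction. Syvn1 has its copy nearest to the start, at chr19:6046522-6046560 on the plus strand. Herpud1 holds the related element ATTGG, any 1 base, CCACG, which 10 of all genes hold (0.037%). The core TGACGTGG, described for Xbp1, was in none of the 33 members' windows and in 0.603% of all genes. These matches describe letters in a window and say nothing of binding in these cells.

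The Atf4 arm was read for another element, TTNCATCA on either strand, a form of the site bound by Atf4 with C/EBP partners. It was present in 2 of its 6 genes (33.3%), in 3 of the 33 members with a window (9.09%) and in 3.91% of all genes. The 3 members are Chac1, Asns and Herpud1, shown with the element in capitals. In Asns it runs in the other direction and reads TGATGAAA.
Chac1: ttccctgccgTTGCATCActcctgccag
Asns: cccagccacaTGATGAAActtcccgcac
Herpud1: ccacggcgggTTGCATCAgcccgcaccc

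They lie at chr2:119351039-119351066 (plus strand), chr6:7693215-7693242 (minus strand) and chr8:94386307-94386334 (plus strand). Among 29 further Atf4 targets with a window, 9 held the element (31.0%). Among the 33 members with a window, Herpud1 is thus the one with both an Atf4-type site and an ER stress type of element in the 250 bases.

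Levels differed far more between the members than between the genotypes. Per kb of exon and over all 8 libraries, the lectin chaperone Calr was the highest at 323 ± 53.7 CPM per kb (SD, n = 8), followed by the disulfide isomerases P4hb at 294 ± 44.4 and Pdia3 at 284 ± 32.4, by Hsp90b1 at 194 ± 34.0, Hspa5 at 185 ± 54.0 and Canx at 120 ± 9.67 CPM per kb. The transcription factors Atf4 and Xbp1 were at 72.7 ± 8.22 and 65.3 ± 6.10 CPM per kb, and the sensor Ern2 at 48.7 ± 5.63 CPM per kb stood above the sensors Eif2ak3 at 10.3 ± 1.12, Ern1 at 9.25 ± 1.97 and Atf6 at 8.94 ± 1.09 CPM per kb. The lowest were Chac1 at 1.14 ± 0.603, Derl3 at 0.471 ± 0.181 and Trib3 at 0.227 ± 0.175 CPM per kb, so that Calr exceeded Trib3 by 1420 times. The length counts every annotated exon base of a gene, so the order depends on it. Derl2, with 8.05 kb, averaged 56.3 CPM in Degs2_KO and 54.1 CPM in WT and took rank 36. Edem2, with 3.46 kb, averaged 58.0 CPM in Degs2_KO and 55.0 CPM in WT and took rank 29. For 37 of the 38 pairs of neighbours in this order the ranges over the 8 libraries overlapped, the exception being Derl2 above Chac1. Neighbours were not compared library by library, so an overlap does not show that they changed places within a library. Summed, the 39 genes had 8005 to 10392 CPM in Degs2_KO and 7212 to 8988 CPM in WT.

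**Figure D2:**
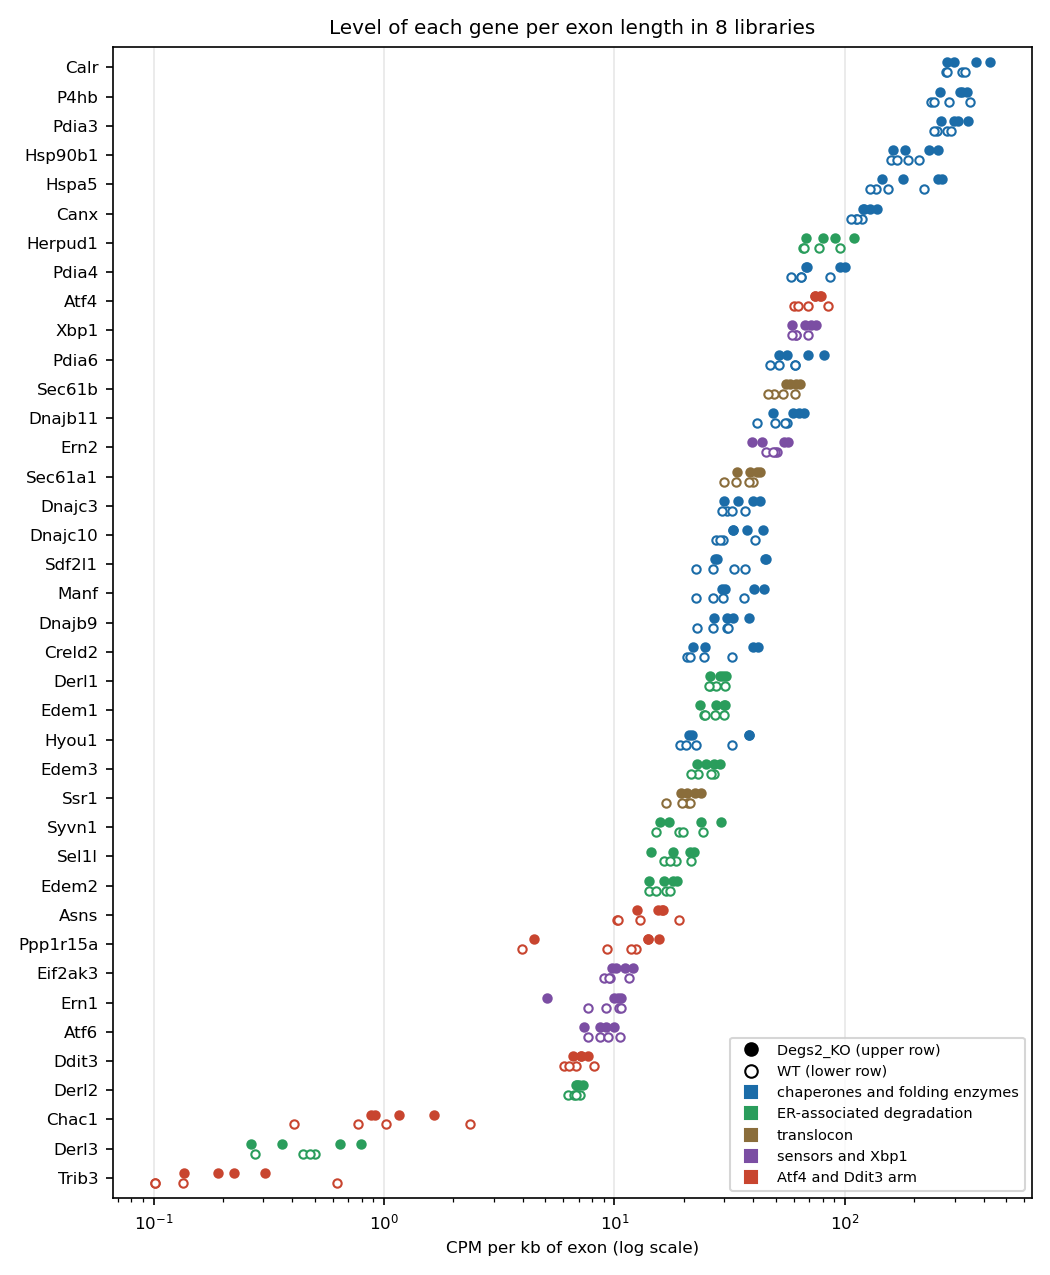
CPM per kb of exon (log axis) of each of the 39 genes, one row per genotype (Degs2_KO filled, WT open) and one point per library, ordered by the mean over 8 libraries. The chaperones take the top of the order and Chac1, Derl3 and Trib3 the bottom, and the Ppp1r15a and Ern1 rows show a Degs2_KO point far below its group.

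All 16 chaperones and folding enzymes had a log2 fold change above 0, between 0.15 (P4hb) and 0.39 (Hspa5), with a median of 0.22, and none passed the test (smallest unadjusted p 0.0742, edgeR adjusted p 0.9996). Hspa5 (BiP), the Hsp70 of the ER lumen and the classical readout of ER stress, had 755, 1113, 610 and 1073 CPM in Degs2_KO replicates 1 to 4, against 577, 935, 651 and 542 CPM in WT replicates 1 to 4. Degs2_KO replicates 2 and 4 were the highest and WT replicate 2 came next, while the other 5 libraries lay between 542 and 755 CPM, so the genotypes overlapped. Its log2 fold change was 0.39 ± 0.24 (SE), which corresponds to 1.31-fold with a 95% interval of 0.904 to 1.91, at an unadjusted p of 0.133 and an edgeR adjusted p of 0.9996.

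Canx (calnexin), the membrane-bound lectin chaperone of glycoproteins, had 566, 603, 564 and 644 CPM in Degs2_KO, against 527, 557, 531 and 501 CPM in WT. Every Degs2_KO library was above every WT library, with the lowest at 564 CPM in Degs2_KO and the highest at 557 CPM in WT. Canx was at 0.17 ± 0.08 on the log2 scale, or 1.12-fold with an interval of 0.986 to 1.28 (unadjusted p 0.0742, edgeR adjusted p 0.9996). DESeq2 gave an unadjusted p of 0.0357 and an adjusted p of 0.9999. Its soluble relative Calr (calreticulin) had 801, 1070, 855 and 1230 CPM in Degs2_KO and 923, 957, 793 and 803 CPM in WT, with overlap. Calr was at 0.19 ± 0.15 on the log2 scale.

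Dnajb11, a J-domain co-chaperone of Hspa5, had 157, 205, 193 and 215 CPM in Degs2_KO and 182, 178, 134 and 161 CPM in WT. Degs2_KO replicates 2, 3 and 4 exceeded all WT libraries and replicate 1 did not (log2 fold change 0.23 ± 0.13, unadjusted p 0.105, edgeR adjusted p 0.9996). The other J-domain proteins had log2 fold changes of 0.21 for Dnajb9, 0.18 for Dnajc3 and 0.21 for Dnajc10, the ER-resident reductase. Sdf2l1, a partner of Dnajb11, averaged 40.2 ± 11.3 CPM in Degs2_KO and 33.1 ± 7.04 CPM in WT (SD, n = 4 each).

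The remaining folding genes lay in the same range. Hyou1, which exchanges nucleotide on Hspa5, averaged 216 ± 71.5 CPM in Degs2_KO and 172 ± 43.4 CPM in WT. Hsp90b1 (GRP94), the ER Hsp90, averaged 835 ± 168 CPM in Degs2_KO and 730 ± 90.8 CPM in WT, with 415 exon bases shared with 1810014B01Rik. Among the disulfide isomerases the log2 fold changes were 0.15 for P4hb, 0.19 for Pdia3, 0.28 for Pdia4 and 0.22 for Pdia6. Creld2, a stress-induced protein of the ER lumen with isomerase activity, and Manf, which binds Hspa5 and can be secreted, were at 0.38 ± 0.24 and 0.32 ± 0.18. Part of Manf's exons, 146 bases, also belongs to Dcaf1 on the opposite strand, and it is not stated whether counting used the strand.

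Most of the 16 genes were high and low in the same libraries. Degs2_KO replicate 4 was the highest of the 8 libraries for 9 of the 16 chaperone genes and Degs2_KO replicate 2 for 5, and they were among the 3 highest for 15 and 14 of the 16. WT replicate 2 was among the 3 highest for 10. WT replicate 4 was the lowest library for 9 and WT replicate 3 for 6. P4hb and Dnajc10 differed: P4hb was highest in WT replicate 1 (997 CPM) and Dnajc10 in Degs2_KO replicate 3 (220.2 CPM). The mean deviation of the 16 genes from their mean over all libraries, in log2, was -0.10, 0.30, -0.08 and 0.36 in Degs2_KO replicates 1 to 4, against -0.07, 0.11, -0.21 and -0.30 in WT replicates 1 to 4. Degs2_KO replicates 1 and 3 thus lay inside the range of the WT libraries.

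**Figure D3:**
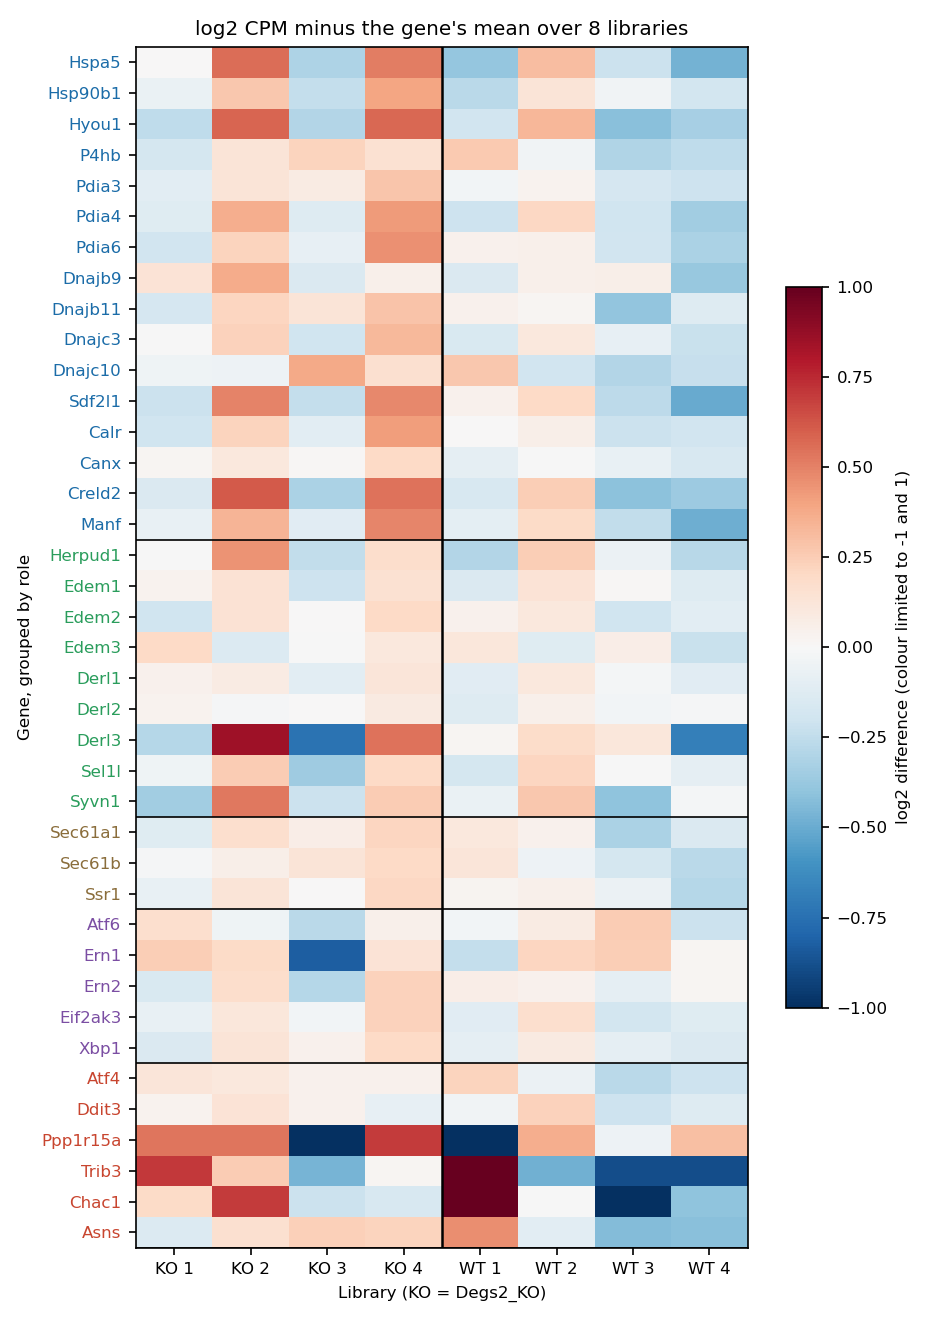
Log2 CPM of each of the 39 genes in each library, minus the gene's mean over the 8 libraries, with Degs2_KO on the left and WT on the right and genes grouped by role (top to bottom: chaperones, degradation, translocon, sensors, Atf4 and Ddit3 arm). The chaperone block is red in Degs2_KO replicates 2 and 4 and WT replicate 2 and blue in WT replicates 3 and 4, whereas in the bottom block WT replicate 1 is red for 4 of the 6 genes.

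The genes of ER-associated degradation had a lower median. All 9 had a log2 fold change above 0, with a median of 0.08, and none passed the test (smallest unadjusted p 0.285). That median was 0.04 without Degs2_KO replicate 2 or without replicate 4, 0.14 without Degs2_KO replicate 3 and 0.12 without WT replicate 2. Herpud1, a membrane scaffold of the degradation complex and the most abundant of the group, had 187, 257, 158 and 212 CPM in Degs2_KO, against 154, 223, 180 and 155 CPM in WT. Both genotypes held high and low libraries, and replicate 2 was the highest of each. The log2 fold change of Herpud1 was 0.19 ± 0.17, with an edgeR adjusted p of 0.9996. Derl2, a derlin of the membrane channel, had 56.5, 54.7, 55.4 and 58.8 CPM in Degs2_KO and 50.5, 57.2, 54.0 and 54.6 CPM in WT, the tightest member of all with 1.16-fold between its highest and lowest library. Its 95% interval ran from 0.941-fold to 1.15-fold, so that at this depth a difference of 1.5-fold lay outside it. Derl2 shares 231 exon bases with Mis12.

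Edem1, Edem2 and Edem3, which trim mannose from misfolded glycoproteins, had log2 fold changes of 0.06, 0.08 and 0.08. Derl1 was at 0.07 ± 0.08. The ligase Syvn1 (Hrd1) averaged 104 ± 29.7 CPM in Degs2_KO and 95.1 ± 17.9 CPM in WT, and its adaptor Sel1l 162 ± 29.5 CPM in Degs2_KO and 158 ± 19.0 CPM in WT. Syvn1, Sel1l and Derl3 turned to values below 0 when single libraries were left out, and Syvn1 shares 91 exon bases with Mrpl49. Derl3, the derlin typical of secretory cells such as plasma cells, was near 1 CPM in both genotypes, at 1.03 ± 0.491 CPM in Degs2_KO and 0.849 ± 0.205 CPM in WT.

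The 3 translocon genes had log2 fold changes of 0.13 to 0.18. Sec61b, a small subunit of the channel, had 70.3, 73.6, 77.6 and 81.3 CPM in Degs2_KO, against 77.1, 68.5, 62.6 and 58.7 CPM in WT. All Degs2_KO libraries were above 3 of the WT libraries, and WT replicate 1 lay among them (0.18 ± 0.10, unadjusted p 0.0918, edgeR adjusted p 0.9996). Sec61a1, the pore itself, had 230, 281, 261 and 290 CPM in Degs2_KO and 269, 258, 201 and 226 CPM in WT (0.15 ± 0.12). It shares 549 exon bases with Gm44170 on the opposite strand. Ssr1, of the translocon-associated TRAP complex, averaged 225 ± 19.6 CPM in Degs2_KO and 205 ± 21.1 CPM in WT.

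The sensors showed no common sign. Of Atf6, Ern1, Ern2, Eif2ak3 and Xbp1, 2 had a log2 fold change above 0 and 3 below, with a median of -0.01 (-0.07 without Degs2_KO replicate 4 and 0.12 without Degs2_KO replicate 3). Ern2 (IRE1 beta), the IRE1 of mucous epithelia, had 129, 162, 118 and 168 CPM in Degs2_KO, against 151, 148, 135 and 145 CPM in WT. The WT libraries lay inside the range of the Degs2_KO libraries. Its log2 fold change was -0.01 ± 0.12, and its sign differed with the scaling (0.0022 with median-of-ratios size factors). The 95% interval of its log2 fold change ran from -0.28 to 0.27.

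Xbp1, the transcription factor made from IRE1-spliced mRNA, had 192, 232, 218 and 243 CPM in Degs2_KO and 199, 225, 198 and 191 CPM in WT, with overlap (0.12 ± 0.09, unadjusted p 0.237, edgeR adjusted p 0.9996). A count per gene does not separate spliced from unspliced Xbp1, so IRE1 activity was not measured. Eif2ak3 (PERK) had 58.9, 67.2, 61.0 and 72.9 CPM in Degs2_KO and 57.4, 69.7, 54.5 and 57.0 CPM in WT (0.12 ± 0.10). It shares 485 exon bases with Gm43292. Atf6, the sensor cleaved in the Golgi, averaged 81.2 ± 10.1 CPM in Degs2_KO and 83.8 ± 11.3 CPM in WT.

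Ern1 (IRE1 alpha) is given by library because its values stood out once seen. It had 87.6, 84.4, 41.7 and 81.0 CPM in Degs2_KO, against 62.5, 85.4, 87.6 and 74.8 CPM in WT. The low values of each genotype, in Degs2_KO replicate 3 and WT replicate 1, come from the 2 libraries that stood apart on the first principal component. The log2 fold change was -0.07 ± 0.22 with all libraries and 0.03 without those 2.

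In the Atf4 and Ddit3 arm 5 of the 6 genes had a log2 fold change above 0, with a median of 0.10, and none passed the test. The median was 0.35 without WT replicate 1, 0.05 without WT replicate 3, 0.06 without WT replicate 4, and 0.22 by limma-trend. Atf4, the factor translated when eIF2 alpha is phosphorylated, had 186, 183, 175 and 176 CPM in Degs2_KO, against 198, 164, 142 and 147 CPM in WT. The Degs2_KO libraries lay close together and above 3 of the WT libraries, while WT replicate 1 was the highest of all 8 (0.14 ± 0.11, unadjusted p 0.216, edgeR adjusted p 0.9996). Atf4 is controlled mainly in translation, which these data do not cover.

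Asns, the asparagine synthetase and a direct Atf4 target, had 34.4, 42.2, 44.6 and 44.0 CPM in Degs2_KO, against 52.2, 35.2, 28.0 and 28.2 CPM in WT. WT replicate 1 was again the highest, and the other WT libraries were at the bottom with Degs2_KO replicate 1 (0.20 ± 0.20). Ddit3 (CHOP), the factor linked to cell death under prolonged stress, had 12.2, 13.1, 12.2 and 11.3 CPM in Degs2_KO and 11.6, 14.0, 10.3 and 10.9 CPM in WT. The genotypes overlapped fully (0.06 ± 0.12, interval 0.870-fold to 1.25-fold), and Ddit3 shares 68 exon bases with Mars.

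The other genes of the arm varied most between libraries and are given by library because of that, a choice made after their values were seen. Ppp1r15a (GADD34), which brings the phosphatase to eIF2 alpha, had 40.9, 40.9, 13.1 and 45.9 CPM in Degs2_KO, against 11.6, 36.3, 27.2 and 34.7 CPM in WT. It was low in Degs2_KO replicate 3 and WT replicate 1, and 27.2 to 45.9 CPM in the other 6 libraries. Trib3, a pseudokinase induced by Atf4 and Ddit3, had 0.650, 0.474, 0.288 and 0.403 CPM in Degs2_KO, against 1.32, 0.286, 0.215 and 0.215 CPM in WT. Chac1, which degrades glutathione, had 1.902, 2.704, 1.438 and 1.494 CPM in Degs2_KO and 3.85, 1.67, 0.669 and 1.27 CPM in WT. For both, WT replicate 1 was the highest of all libraries, and the other WT libraries lay below every Degs2_KO library for Trib3 but not for Chac1. Their fold changes were correspondingly wide, -0.17 ± 0.63 for Trib3 and 0.02 ± 0.49 for Chac1.

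Set side by side, the chaperone and degradation genes and the Atf4 and Ddit3 arm were high or low together in some libraries and parted in others. The 25 chaperone and degradation genes had mean log2 deviations of -0.09, 0.28, -0.13 and 0.30 in Degs2_KO replicates 1 to 4, against -0.07, 0.12, -0.16 and -0.26 in WT replicates 1 to 4. The 6 genes of the Atf4 arm had 0.23, 0.30, -0.24 and 0.12 in Degs2_KO, against 0.36, -0.002, -0.50 and -0.27 in WT. Both were high in Degs2_KO replicates 2 and 4 and low in Degs2_KO replicate 3 and WT replicates 3 and 4. The arms parted most in WT replicate 1, where the Atf4 arm was high and the chaperones slightly low, in WT replicate 3, where both were low and the Atf4 arm the lower, and in Degs2_KO replicate 1, where it was the higher. The chaperone and degradation mean minus the Atf4 arm mean averaged -0.01 ± 0.22 in Degs2_KO and 0.01 ± 0.33 in WT (SD, n = 4 each), so the mean difference between genotypes was far within the spread of libraries. The medians of the fold changes differed by 0.09 in favour of the chaperone and degradation genes, but by -0.13 without WT replicate 1, -0.14 without it and Degs2_KO replicate 3, and -0.04 by limma-trend.

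**Figure D4:**
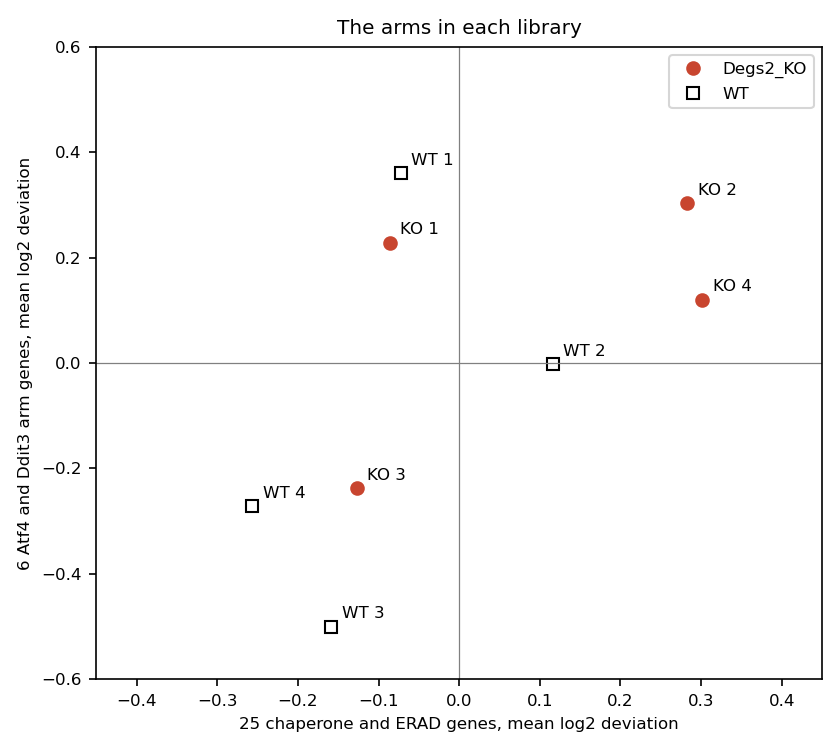
Mean log2 deviation of the 25 chaperone and degradation genes (x axis) and of the 6 Atf4 and Ddit3 arm genes (y axis) in each library, Degs2_KO as filled circles and WT as open squares. Degs2_KO replicates 2 and 4 are high on both axes and WT replicates 3 and 4 low on both, while WT replicate 1 and Degs2_KO replicate 1 are high on the Atf4 axis only.

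The median genotype difference was alike in members with and without the ER stress element, and the ranges overlapped. The 9 members with it had a median log2 fold change of 0.19, from 0.13 to 0.39. The 13 chaperone and degradation genes with a window and without it also had a median of 0.19, from 0.04 to 0.28. In both sets all genes were above 0. Herpud1, with the related element, is counted among those without it. In single libraries the genes with the element lay farther out. They were at 0.40, -0.24 and 0.40 in Degs2_KO replicates 2, 3 and 4, against 0.15 and -0.29 in WT replicates 2 and 4. For those without it the same libraries gave 0.19, -0.04 and 0.21 in Degs2_KO, against 0.07 and -0.22 in WT.

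Of the role groups, the Atf4 arm moved most when the 2 libraries that stood apart were left out. Without Degs2_KO replicate 3 and WT replicate 1, a choice made after the data were seen, all 39 members had a log2 fold change above 0, against 48.6% of all tested genes, and 6 had an unadjusted p under 0.05, against 650 of 16214 genes (4.01%, and 1.67% counted with Degs2_KO higher). No gene was called, and the smallest adjusted p of a member was 0.999 by edgeR. Of these 6, 4 belong to the Atf4 arm: Trib3 at 1.09 ± 0.32, Atf4 at 0.27 ± 0.08, Ppp1r15a at 0.38 ± 0.13 and Asns at 0.41 ± 0.14. The others were Dnajc10 at 0.27 ± 0.09 and Sec61b at 0.25 ± 0.09. The median of the Atf4 arm was then 0.39, that of the chaperones 0.29, that of the sensors 0.11 and that of the degradation genes 0.12. Leaving out WT replicate 1 alone gave 5 members under 0.05, Asns, Atf4, Dnajc10, Sec61b and Trib3, where 4.78% of all genes were under it. Leaving out Degs2_KO replicate 3 alone gave 3 others, Hspa5 at 0.54 ± 0.22, Creld2 and Dnajc3, where 1.78% of all genes were under it.

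Markers of cell types and of handling also varied between libraries. Of 16 genes of heat shock and dissociation stress, 15 had a log2 fold change above 0 and 0 were called. Their summed level was 3057 to 6805 CPM in Degs2_KO and 2748 to 6214 CPM in WT, lowest in Degs2_KO replicate 3 and WT replicate 1, the libraries with little Ern1 and Ppp1r15a. The mean deviation of the list was 0.41, 0.55, -0.86 and 0.54 in Degs2_KO replicates 1 to 4, against -0.97, 0.51, -0.07 and -0.11 in WT replicates 1 to 4. The libraries high in chaperones were thus high in this list, but Degs2_KO replicate 1 was high in it as well with a chaperone mean of -0.10. Of 13 tested goblet cell markers 11 had a log2 fold change above 0 and 0 were called, with summed levels of 7417 to 27630 CPM in Degs2_KO and 11910 to 31260 CPM in WT. Their mean deviation was -0.02, 0.21, -0.22 and 0.29 in Degs2_KO, against 0.27, -0.01, -0.27 and -0.25 in WT. Ern2 is one of them, and Fcgbp and Clca1 had failed values and were not tested. Of 11 markers of absorptive colonocytes 2 had a log2 fold change above 0, with sums of 4213 to 13340 CPM in Degs2_KO and 4956 to 12380 CPM in WT. Of 10 general markers of colon epithelium 7 were above 0, and of 13 tested genes of position along the gut 2 were (median -0.47), none called.

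Markers of cells other than epithelium were low, and those of plasma cells and fibroblasts were highest in WT replicate 4, the library with the lowest chaperone mean. Of 13 markers of plasma cells, which hold much ER, and B cells, 11 are not members, and these summed to 2.6 to 4.6 CPM in Degs2_KO, against 1.8 to 3.1 CPM in WT replicates 1 to 3 and 12.2 CPM in WT replicate 4. Of their defining genes Mzb1 was at most 0.0476 CPM and Jchain at most 0.716 CPM, Tnfrsf17 was at 0 in 7 libraries, and Igha reached 4.18 CPM in WT replicate 4. Of the 5 tested genes of the list, which include Xbp1 and Derl3, 3 were above 0. Markers of fibroblasts summed to 4.5 to 26.1 CPM in Degs2_KO and 11.2 to 50.3 CPM in WT, and 0 of the 8 tested were above 0 (median -0.85, 0 called). Their mean deviation was 2.07 in WT replicate 4 and 1.11 in Degs2_KO replicate 1, the highest of each genotype. Markers of T cells summed to 13.8 to 37.0 CPM in Degs2_KO and 9.1 to 46.9 CPM in WT, highest in WT replicate 1, and 4 of 10 were above 0. Without WT replicate 4 the chaperone median was 0.17, against 0.22 with it. Atf3 of the stress list is also an Atf4 target. The part of stress handling, of goblet cell content and of other cell types in the ER gene values was not tested.

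**Figure D5:**
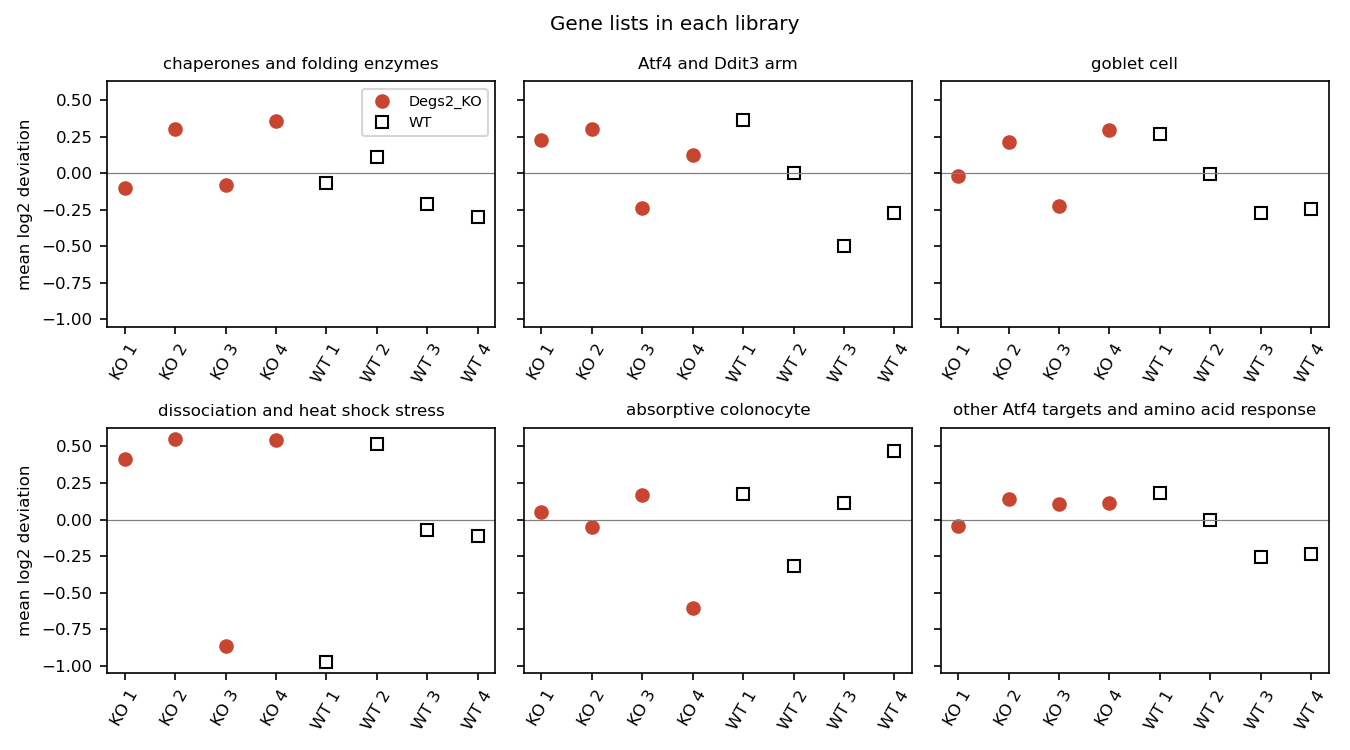
Mean log2 deviation of 6 gene lists in each library (Degs2_KO filled circles, WT open squares). The stress list is lowest in Degs2_KO replicate 3 and WT replicate 1, while the goblet cell, chaperone and Atf4 lists share low values in WT replicates 3 and 4.

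The wider machinery of the ER, given as 5 lists of other genes, had medians above 0 and no called gene. These lists too were chosen with earlier results of these data known. In Degs2_KO replicate 3 and WT replicate 1 the other folding list had mean log2 deviations of 0.10 and 0.09. The other translocation list had 0.09 and 0.08. Among the members, the 16 chaperones had -0.08 and -0.07 in these libraries, and the 3 translocon genes 0.07 and 0.08. Of 29 other folding genes 24 had a log2 fold change above 0 (median 0.10), among them Hspa13, an Hsp70-like ATPase, at 0.20 ± 0.09 and Selenof at 0.16 ± 0.09, with Ero1lb, an oxidase, at -0.12 ± 0.17 and Fkbp14 at -0.09 ± 0.15 on the other side. Of 30 other genes of translocation and N-glycosylation 29 were above 0 (median 0.12), with Ostc, a subunit of the oligosaccharyltransferase, at 0.21 ± 0.11, Srp68 of the signal recognition particle at 0.16 ± 0.08, and Sec61a2 at -0.09 ± 0.12 as the exception. Of 23 tested other degradation genes 16 were above 0 (median 0.04). Selenok, a selenoprotein of the degradation complex, had 43.4, 42.4, 42.8 and 49.1 CPM in Degs2_KO, against 34.9, 41.7, 39.1 and 36.3 CPM in WT. Its libraries did not overlap by genotype, and its unadjusted p of 0.0249 was the smallest of the 5 lists (0.23 ± 0.08, edgeR adjusted p 0.9996). Of the 23 tested genes 2 had groups that did not overlap and 1 had an unadjusted p under 0.05. Over all tested genes the shares were 1.04% and, by edgeR, 1.13%. Bcap31, an ER membrane chaperone, also had groups that did not overlap, at 122 ± 3.44 CPM in Degs2_KO and 115 ± 2.21 CPM in WT, while Erlin1 and Herpud2 were at -0.12 ± 0.09 and -0.06 ± 0.07.

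Of 21 other genes of stress sensing 16 were above 0 (median 0.06). Eif2s1, which encodes the eIF2 alpha phosphorylated by PERK, had 68.4, 68.4, 69.3 and 66.4 CPM in Degs2_KO, against 64.1, 64.2, 61.1 and 55.9 CPM in WT. The genotypes did not overlap, at a log2 fold change of 0.15 ± 0.07 (unadjusted p 0.0501, edgeR adjusted p 0.9996). It was the 1 gene of the 21 without overlap, where 1.04% of all tested genes had groups that did not overlap. In the folding, translocation and Atf4 target lists 0 genes had such groups. Wfs1 was at 0.15 ± 0.10, and Eif2ak1, another eIF2 alpha kinase, and Mbtps1, a protease that cleaves Atf6, were at -0.05 ± 0.06 and -0.06 ± 0.08. Of 32 tested other Atf4 targets 27 were above 0 (median 0.14), with the tRNA synthetases Tars at 0.18 ± 0.09 and Wars at 0.23 ± 0.12, and with Gpt2 at -0.11 ± 0.12 and Psph at -0.05 ± 0.14. Without Degs2_KO replicate 3 and WT replicate 1, a choice made after the data were seen, 28 of these 32 targets were above 0 (median 0.26). Of all tested genes 48.6% were above 0 in that fit. By edgeR 8 of the 32 had an unadjusted p under 0.05, all with Degs2_KO higher, and none was called. The share of all tested genes under 0.05 was 4.01%, and 1.67% counted with Degs2_KO higher. Other lists also had genes under 0.05 by edgeR in that fit. They were 5 of 16 stress genes, 3 of 13 goblet cell markers, 4 of 30 translocation genes and 2 of 29 other folding genes. All of these had Degs2_KO higher. Of the absorptive markers 2 of 11 were under it, and of the gut position genes 2 of 13, with 0 higher in Degs2_KO.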

How the data were processed

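The deposited table holds an estimated count for each gene in each library, made by the authors, per the file headers. The submitters' processing notes name cutadapt 1.9, TopHat2 2.0.10, Cufflinks 2.1.1, Cuffdiff and mm10. Each library had been scaled by 1 factor. Totals given here in fragments have it undone. In 47 genes, none of the 39, the deposited value had failed in a library and was listed at 0, so they were left out. Whether counting used the strand is not stated. Symbols and exon lengths are from GENCODE M21. Ddit3 matched a second ID, at 0 in all libraries and not used.

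Estimated counts were rounded and tested with edgeR 4.0.16 in R 4.3.3 (TMM, filterByExpr with minimum count 10 and minimum total 15, 2-sided quasi-likelihood F test, Benjamini-Hochberg at 0.05), which left 16132 genes. CPM values are TMM-normalized, and intervals are at 95%. DESeq2 1.42.0 and limma 3.58.1 were alternatives. The script was tested on simulated data.

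The 39 members and all lists were chosen with earlier results of these data known. By rule, values per library are given for Degs2, for 5 set genes, and in each role group for the genes with the smallest p and the highest CPM. From each wider list up to 2 genes per direction with the smallest p are named. Promoter windows are RefSeq's (GRCm38.p6). Protein sequence was not used here.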

Additional observations from a re-analysis of the deposited data

Results flagged for a closer look

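In 3 of 78 groups of 4 libraries 1 library lay far from the other 3 by Dixon's 95% criterion, which chance meets in about 1 of 20 groups. Ern1 had 41.7 CPM in Degs2_KO replicate 3, and 81.0 to 87.6 CPM in the other Degs2_KO libraries. Ppp1r15a had 13.1 CPM in the same library, and 40.9 to 45.9 CPM in the other Degs2_KO libraries. Trib3 had 1.32 CPM in WT replicate 1, and 0.215 to 0.286 CPM in the other WT libraries. These are the libraries that stood apart on the first principal component and had little Hoxd13. The cause was not tested.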

How the results depend on the processing

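Under 17 alternatives 0 members were called, and 31 of 39 kept their sign under all of them. DESeq2 called 2 genes, of which Degs2 at -1.06 was one, and gave 1 member an unadjusted p under 0.05. The count of all genes under 0.05 was 401 with no filter, 99 with the replicate block, 133 to 782 when leaving out each library in turn (782 without WT replicate 1, then 298 and 292 when Degs2_KO replicate 1 or 3 was dropped) and 650 without Degs2_KO replicate 3 and WT replicate 1 together. For members it was 0 to 5 when leaving out each library (5 without WT replicate 1, 3 when Degs2_KO replicate 3 or WT replicate 2 was dropped, 2 when Degs2_KO replicate 1 was) and 6 without both. The 3 without WT replicate 2 were Hspa5, Manf and Pdia4, where 231 of 16442 tested genes (1.4%) were under 0.05. That share was 4.78% without WT replicate 1 and 1.78% without Degs2_KO replicate 3. It was 1.82% without Degs2_KO replicate 1 and 4.01% without both. Pairing by replicate number was not visible, which does not show that the libraries were unpaired. As deviations from their group means, same-numbered libraries correlated at -0.42, 0.44, -0.56 and -0.10, and replicate 2 alone correlated best with its own number. With the replicate block Trib3 was at 0.19.

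Signs turned for 8 members, and the cause was not tested. With all libraries kept, Ern2 was at 0.0022 with median-of-ratios size factors, 0.0022 with DESeq2 and 0.0069 with no filter, and Trib3 at 0.20 with limma-trend. Without both libraries that stood apart, Atf6 was at 0.014, Ern1 at 0.035, Ern2 at 0.11 and Trib3 at 1.09. When single libraries were left out, Derl3 ranged from -0.0075 to 0.50, Sel1l from -0.045 to 0.15, Syvn1 from -0.048 to 0.26, Atf6 from -0.12 to 0.036, Ern1 from -0.16 to 0.12, Ern2 from -0.087 to 0.081, Trib3 from -0.42 to 0.93 and Chac1 from -0.26 to 0.66. The chaperone median stayed between 0.17 and 0.30, and the Atf4 arm median ranged from 0.05 to 0.35, highest without WT replicate 1. The difference between the medians of the arms was -0.04 with limma-trend, -0.03 with the replicate block and -0.13 to 0.16 when leaving out each library. Trib3, Derl3 and Chac1, at a few CPM or less, limit what depth can show.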

Other observations

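Outside the members, 26 genes held the ER stress element in the searched window, and 8 of them were tested. Of these, 4 had a log2 fold change above 0 and 4 below, with a median of 0.03 and none with an unadjusted p under 0.05. Alg12, a mannosyltransferase of N-glycan assembly in the ER, averaged 17.7 CPM in Degs2_KO and 16.8 CPM in WT (0.08 ± 0.13). Hnrnpa3, an RNA-binding protein, averaged 598 CPM in Degs2_KO and 544 CPM in WT (0.14 ± 0.11). Muc2, the gel-forming mucin and a main cargo of the goblet cell ER, had 6963, 16700, 522 and 20370 CPM in Degs2_KO, against 24560, 13490, 5907 and 15960 CPM in WT, so that its lowest library was Degs2_KO replicate 3 and its highest WT replicate 1.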
